A study of Homo sapiens with 2 samples.

Results

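The genes described here are the claudins, cadherins, desmosome proteins and connexins that hold epithelial cells together, in the hepatoma line PLC8024 with and without MAEL. They were chosen by name: every protein-coding row of the deposited count table called CLDN, CDH, DSC, DSG, TJP, GJA, GJB or GJC followed by a digit, together with OCLN, F11R, DSP, JUP and PKP1 to PKP4. This gave 83 of the 58735 genes listed. The rule itself uses names and gene type and no measured value. RNA sequencing was carried out on 1 library of PLC8024 cells, genotype wildtype and untreated by its label, called MAEL WT here. The other was 1 library of the same line with genotype MAEL KO. The paper's sorafenib figure defines WT as a nontarget control, and whether this holds for the sequenced cells is not given. PLC8024, also known as PLC/PRF/5 or Alexander cells, is an epithelial line from a human liver tumour. The knockout was made with a plasmid carrying Cas9 and a single guide RNA against MAEL, and sorted cells were grown as single clones, and the submitters checked the loss of MAEL by western blot and a T7E1 cleavage assay. A difference that came with growth from a single clone cannot be told apart from a difference made by the knockout. The libraries held 19904136 counts (MAEL WT) and 20833332 counts (MAEL KO). MAEL itself, the targeted gene, had 1 and 0 counts, which is too few to check either label.

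Tight junctions seal the space between epithelial cells, and claudins are the membrane proteins that decide which ions and solutes may pass. Cadherins of adherens junctions bind their like on the next cell through calcium and are tied to actin by catenins. Desmosomes use desmogleins and desmocollins in the same way but are tied to keratin filaments by plakoglobin, plakophilins and desmoplakin. Connexins form gap junction channels that let small molecules flow from cell to cell. In the liver these junctions also close off the bile canaliculus, and connexin 32 is the main gap junction protein of the hepatocyte.

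Read counts were scaled by TMM factors, and the log2 fold change of MAEL KO over MAEL WT was taken after 1 was added to each normalized count. Only genes that reached 10 counts in either library were compared, and a gene past 2 on this scale in either direction is said to pass the fold threshold. Intervals in brackets are exact 95% Clopper-Pearson limits. They were set on the fraction of each gene's reads found in MAEL KO and turned into the log2 scale. They cover the counting error of reads only. These reads carry no molecular identifiers and may be copies of the same molecule, which would make the limits too narrow. With 1 library per condition there is no replicate error, so no difference below has a test or a p-value. Levels of different genes are compared only as FPKM, which is per kilobase of gene length. In bulk RNA, fewer cells that express a gene and less RNA per cell cannot be told apart.

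Of the 83 genes, 45 reached the count minimum, 11 had more than 3 but under 10 counts in their higher library, and 27 were at or under 3 counts in both, 12 of them at 0. Among the 45, 1 was higher and 4 were lower past the fold threshold. In all 17887 genes compared, 2.16% were higher and 5.64% lower, or 7.8% in either direction, where the 5 junction genes are 11.1% of the 45. These 5 genes were CLDN14, which was higher, and CDH17, CDH6, CLDN10 and CLDN18, which were lower. Only CDH17 had at least 100 counts in a library, and among genes of this depth 3.89% of all genes passed the threshold against 1 of 27 junction genes. The other 4 reached the count minimum in 1 library only, which by itself favours a large fold change. At a log2 fold change of 1, 8 genes were higher and 8 lower, where the shares of all genes were 10.2% and 16.5%, or 26.7% in either direction. The interval lay above 0 in 15 of the 45, below 0 in 19 and took in 0 in 11, where the numbers among all 17887 genes were 6220, 6207 and 5460. The median over the 45 genes was -0.05 on the log2 scale, beside -0.04 over all genes.

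**Figure D1:**
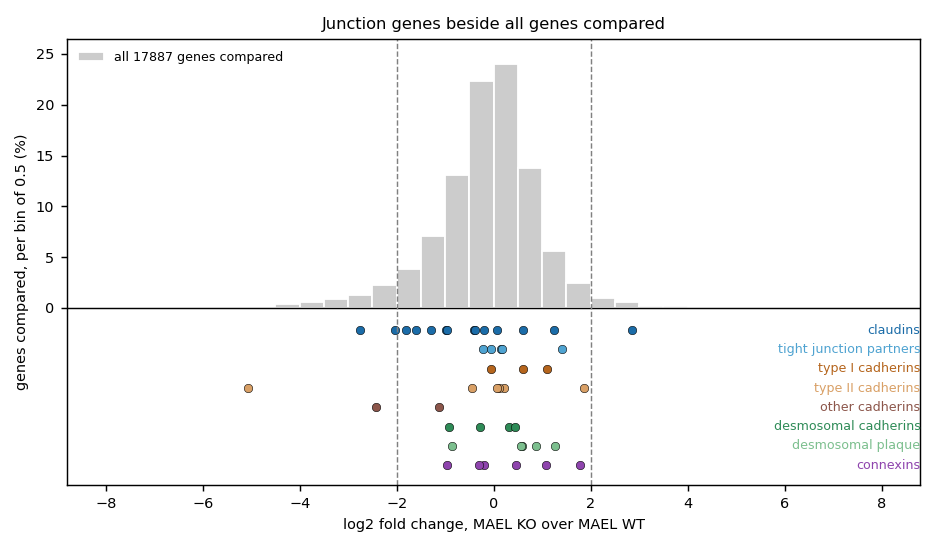
Distribution of the log2 fold change of MAEL KO over MAEL WT. Grey bars are the percentage of the 17887 genes compared in each bin of 0.5. Points under the zero line are the 45 junction genes by group (their height has no scale), and dashed lines mark the fold threshold of 2. Inside the lines lie 40 of the 45 points, and the claudins run from -2.76 to 2.86. CDH6 stands apart at -5.07, a size that depends on the added count because it had 0 counts in MAEL KO. With an added count of 5 it was at -2.91.

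The level of junction RNA was carried by few genes. The FPKM of all 83 genes summed to 441 in MAEL WT and 691 in MAEL KO. Over all 58735 genes the FPKM sums differed too, at 269300 and 337856. By counts, the 83 genes held 0.235% and 0.290% of their libraries. CLDN1 alone held 136 and 322 of the FPKM of the 83 genes. In MAEL WT the next genes were GJA1 at 77.3, DSP at 37.2, GJB1 at 22.5 and DSG2 at 19.7 FPKM. In MAEL KO they were GJB1 at 76.7, GJA1 at 67.4, DSP at 55.7 and JUP at 19.4 FPKM. None of these genes passed the fold threshold. At the other end, CLDN8, CLDN17, CLDN22, CLDN24, CLDN34, CDH12, CDH13, DSG3, GJA5 and the GJA9-MYCBP readthrough were among the genes at 0 counts in both libraries, which allows up to 3 counts each.

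**Figure D2:**
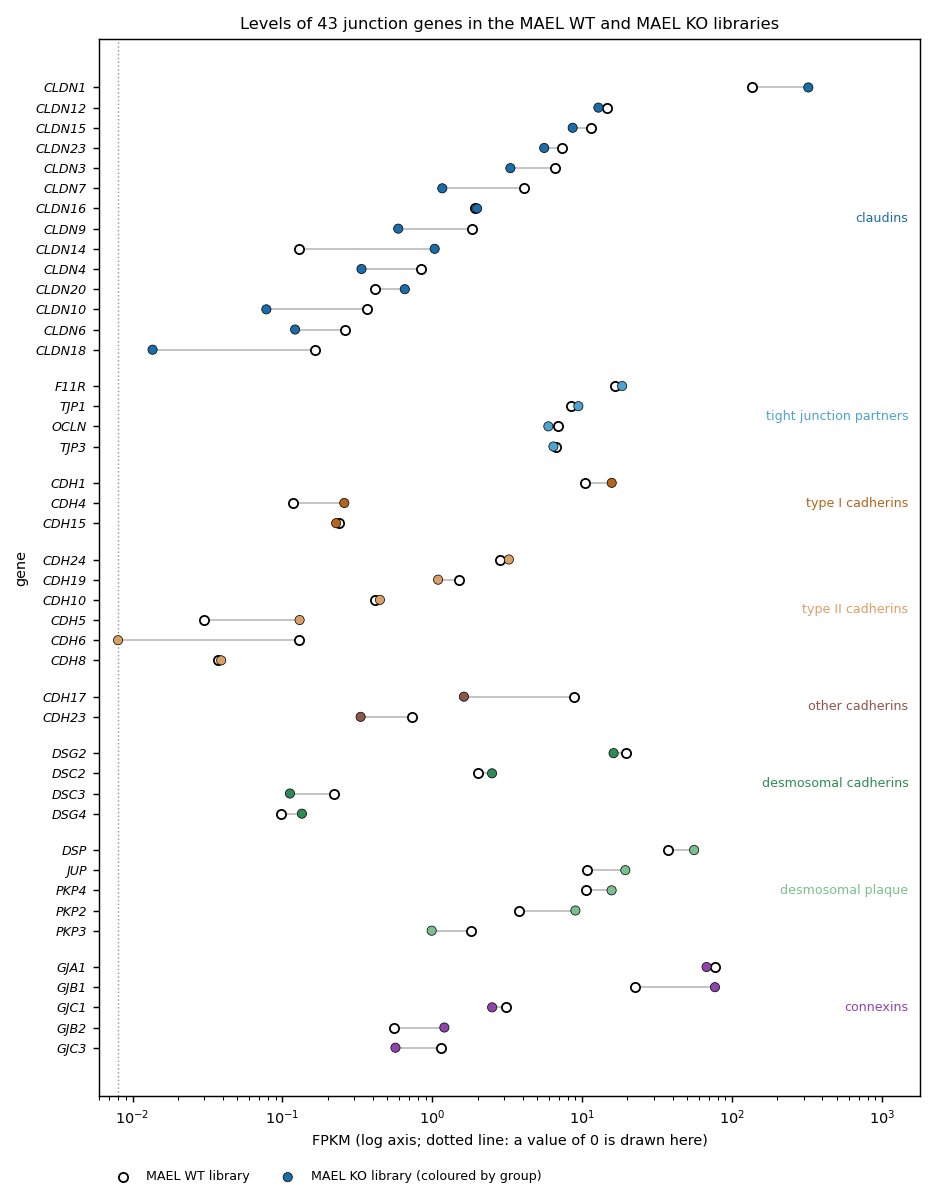
Levels of 43 of the 45 junction genes that reached the count minimum, as FPKM on a log axis, with 1 row per gene, ordered by level within each group. Open circles are the MAEL WT library and filled circles the MAEL KO library; the widest gaps among genes above 1 FPKM in a library are those of CDH17 and CLDN14, and a value of 0 (CDH6 in MAEL KO) is drawn on the dotted line.

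Among the claudins, CLDN1 was higher in MAEL KO while the claudins of lower level were mostly lower. Of 24 claudin genes, 14 reached the count minimum. Of these, 4 lay above 0 and 10 below 0 on the log2 scale, at a median of -0.68. Over all 17887 genes compared, 8593 lay above 0 and 9294 below 0, at a median of -0.04. CLDN6, CLDN10 and CLDN18 reached the count minimum in MAEL WT only, and CLDN14 in MAEL KO only. Such entry by itself favours a difference in that direction. CLDN2, with 6 and 9 counts, and CLDN5, with 2 and 5, were not compared. CLDN1 encodes a barrier-forming claudin of hepatocytes and bile ducts that also serves as an entry factor for hepatitis C virus. It had 10858 counts in MAEL WT and 22350 in MAEL KO, a log2 fold change of 1.25 (1.22 to 1.29). By FPKM it ranked 204 and then 101 among all genes compared. Its share of the summed claudin FPKM was 73.0% in MAEL WT and 89.8% in MAEL KO, a measure inside each library on which scaling between libraries has no bearing.

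CLDN3, CLDN4 and CLDN7, barrier claudins common in glandular epithelia, and CLDN9, a close relative of CLDN6, were each lower in MAEL KO. CLDN7 had 224 and 55 counts, a log2 fold change of -1.80 (-2.27 to -1.38). Scaled by total counts instead, CLDN7 was at -2.07, past the fold threshold. CLDN3 had 183 and 80 counts, at -0.98 (-1.38 to -0.60). CLDN4 had 86 and 30 counts, at -1.28 (-1.96 to -0.69). CLDN9 had 83 and 23 counts, at -1.60 (-2.38 to -0.96). The intervals of all 4 lay below 0, while that of CLDN1 lay above it. Measured against CLDN1 in the same library and per length, CLDN7 stood at 0.0303 (0.0264 to 0.0346) in MAEL WT and 0.00362 (0.00272 to 0.00471) in MAEL KO, and CLDN3 at 0.0485 (0.0416 to 0.0561) and 0.0103 (0.00816 to 0.0128).

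The claudins with smaller differences included some of the better expressed ones. CLDN12, which unlike most claudins lacks a PDZ-binding tail, had 2163 and 1636 counts, at -0.19 (-0.29 to -0.10). CLDN15, which forms cation channels in the intestine, had 724 and 473 counts, at -0.40 (-0.57 to -0.23). CLDN23 had 348 and 229 counts, at -0.39 (-0.64 to -0.15). These 3 intervals lay below 0 and within 1 of it, and CLDN12 shared 16.3% of its exon bases with other genes, among them GTPBP10 and CDK14. CLDN16, a claudin of kidney ion transport, had 150 and 135 counts, at 0.06 (-0.29 to 0.40), an interval that takes in 0.

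Past the fold threshold, the claudins were all rare transcripts. CLDN14, a barrier claudin known from the inner ear and kidney, had 8 counts in MAEL WT and 56 in MAEL KO. Its log2 fold change was 2.86 (1.94 to 4.30), and its ratio of normalized counts with nothing added was 8.1. CLDN18, known from stomach and lung, had 14 and 1 counts and a log2 fold change of -2.76 (-8.999 to -0.88). Its ratio with nothing added was 0.0826. CLDN10, which forms ion channels, had 27 and 5 counts, at -2.03 (-3.96 to -0.83). CLDN10 shares 46.1% of its exon bases with DZIP1 on the opposite strand, which had 2233 and 1522 counts, and since it is not given in the sources used here whether the counting used strand, its value is uncertain. CLDN14 stood at 0.128 and 1.04 FPKM, CLDN10 at 0.365 and 0.0780, and CLDN18 at 0.165 and 0.0136.

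Several claudin genes lie side by side. CLDN1 (chr3:190305701-190322475, minus strand) and CLDN16 (chr3:190322541-190412143, plus strand) are annotated head to head in GENCODE 29 with 65 bases between them. Of the 3 CLDN16 transcripts annotated there, 1 starts at this place. The RefSeq starts of CLDN16 lie elsewhere, within chr3:190290111-190290410 and chr3:190387913-190388212. CLDN1 was higher in MAEL KO and CLDN16 differed by less than its counting error. CLDN3 (chr7:73768997-73770270, minus strand) and CLDN4 (chr7:73799542-73832693, plus strand) lie 29.3 kb apart and were both lower. The bases upstream of the RefSeq starts of CLDN1 (chr3:190322476-190322696) and CLDN3 (chr7:73770271-73770520), both on the minus strand of GRCh38.p14, are shown 5′ to 3′ because these genes differed in opposite directions. Short stretches around motif matches before a RefSeq start of CLDN4 (chr7:73830825-73830851, plus strand) and CLDN7 (chr17:7262637-7262662 and chr17:7262598-7262623, minus strand) follow. These starts are internal, so the stretches lie inside the annotated genes, in bases that GENCODE annotates as UTR. Capitals mark GC boxes (GGGCGG or CCGCCC) in the first pair, an AP-1 site (TGANTCA) in CLDN4 and E2 boxes (CAGGTG or CACCTG) in CLDN7.
CLDN1: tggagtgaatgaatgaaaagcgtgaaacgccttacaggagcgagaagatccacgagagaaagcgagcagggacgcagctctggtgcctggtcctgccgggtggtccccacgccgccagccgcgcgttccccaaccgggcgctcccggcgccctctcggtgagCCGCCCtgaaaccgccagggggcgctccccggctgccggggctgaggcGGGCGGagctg
CLDN3: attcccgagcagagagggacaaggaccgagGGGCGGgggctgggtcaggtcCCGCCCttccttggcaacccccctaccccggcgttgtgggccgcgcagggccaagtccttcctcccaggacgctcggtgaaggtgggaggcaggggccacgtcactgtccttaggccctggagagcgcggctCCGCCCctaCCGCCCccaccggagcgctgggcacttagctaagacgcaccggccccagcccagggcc
CLDN4 AP-1 site: gactggatagTGACTCAgggacccggg
CLDN7 first E2 box: tcttcctcctCACCTGggcaaggagg
CLDN7 second E2 box: acttccggttCAGGTGagtgtccctt

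Motifs were searched on both strands in the 250 bases before each RefSeq start. CLDN1 held 2 GC boxes and CLDN3 held 4, and GC boxes occur in 42.6% of all 35116 promoter windows of this length. CLDN4 held 2 AP-1 sites, found in 6.57% of all windows, and in CLDN7 the window of 1 of its 2 starts held 4 E2 boxes, found in 17.5% of all windows. The E2 box is the letter run bound by the repressors of the SNAI and ZEB families. Over the 80 windows of the 52 junction genes that matched RefSeq entries, 16 held an E2 box and 8 an AP-1 site. A match describes letters and not a bound site.

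The partners of the claudins at the tight junction mostly differed little. OCLN, which encodes occludin, had 1025 and 761 counts, at -0.22 (-0.36 to -0.08). F11R, the junctional adhesion molecule JAM-A, had 1840 and 1770 counts, at 0.15 (0.06 to 0.25). TJP1 and TJP3, the scaffolds ZO-1 and ZO-3, were at 0.17 (0.08 to 0.26) and -0.05 (-0.23 to 0.12), with 2073 and 2010 counts and with 616 and 513 counts. The directions of F11R and TJP1 turned with total counts, to -0.12 and -0.11, when the median of all genes moved by -0.27. F11R shares 36.6% of its exon bases with a second annotated protein-coding gene on the same strand, AL591806.3, which had 3 and 0 counts. How reads in such shared exons were counted is not given in the sources used here, so the level of F11R is uncertain.

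Among the cadherins, E-cadherin was the main classical cadherin and was modestly higher in MAEL KO, and CDH17 was much lower. CDH1, which encodes the E-cadherin of epithelial adherens junctions, had 1400 and 1840 counts, a log2 fold change of 0.60 (0.50 to 0.71). It made up 96.0% and 96.3% of the FPKM of the 5 type I cadherins. CDH2, the N-cadherin of neural and mesenchymal cells that hepatocytes also carry, had 7 and 6 counts. CDH3, which encodes P-cadherin and lies 14.6 kb upstream of CDH1 on chromosome 16, had 2 and 6. The other 2 members of this type, CDH4 with 19 and 36 counts at 1.09 (0.29 to 2.02) and CDH15 with 24 and 20 counts at -0.05 (-0.99 to 0.86), were under 0.3 FPKM.

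CDH17 encodes liver-intestine cadherin, a cadherin of the gut and of some liver tumours that does not bind catenins. It lies on chromosome 8 from 94127171 to 94217303, on the minus strand. It had 756 counts in MAEL WT and 120 in MAEL KO, or 8.86 and 1.62 FPKM, a log2 fold change of -2.44 (-2.74 to -2.17), which is 5.45-fold lower. No other junction gene with at least 100 counts passed the fold threshold. Per length and inside each library, CDH17 stood at 0.855 (0.782 to 0.935) of CDH1 in MAEL WT and at 0.103 (0.0851 to 0.124) in MAEL KO. The level of CDH17 was thus close to that of CDH1 in MAEL WT and far under it in MAEL KO, 8.28-fold lower as a ratio. CDX2, the intestinal transcription factor known to drive CDH17 in the gut, had 191 and 286 counts, at 0.79 (0.52 to 1.06). CDH23, a long cadherin of sensory hair cells, had 296 and 117 counts, at -1.12 (-1.45 to -0.82), and shares 18.9% of its exon bases with C10orf105 on the other strand.

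The type II cadherins were rare throughout, at a summed FPKM of 5.05 in MAEL WT and 5.04 in MAEL KO. CDH24 held most of this, with 231 and 230 counts, at 0.20 (-0.07 to 0.47). CDH19, a cadherin of Schwann cell precursors, had 225 and 142 counts, at -0.45 (-0.77 to -0.14). CDH10, mainly a brain cadherin, had 33 and 31 counts, at 0.12 (-0.64 to 0.87). With total counts CDH24 and CDH10 were at -0.07 and -0.15, so neither has a settled direction. CDH6, which encodes K-cadherin of the kidney, had 35 counts in MAEL WT and 0 in MAEL KO. Against a floor of 3 counts in that library it was at least 10.1-fold lower if the 35 counts are taken as exact, and with their counting error the interval ended at -2.96 on the log2 scale. CDH5, the cadherin of blood vessels, had 4 and 15 counts, at 1.86 (0.47 to 4.17).

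In the desmosome the plaque genes were mostly higher in MAEL KO, and the desmogleins and desmocollins were divided. Of the 6 plaque genes, 5 reached the count minimum, and 4 of these were above 0 with their whole interval, under total counts too, though none passed the fold threshold. DSP encodes desmoplakin, the link to keratin filaments. It had 8219 and 10660 counts, at 0.59 (0.54 to 0.63). JUP, which encodes plakoglobin, shared by desmosomes and adherens junctions, had 1154 and 1814 counts, at 0.86 (0.76 to 0.97). PKP4, a plakophilin relative found mainly at adherens junctions, had 2204 and 2832 counts, at 0.57 (0.49 to 0.65). PKP2, the plakophilin of heart and simple epithelia, differed most, with 580 and 1201 counts, at 1.26 (1.12 to 1.41). PKP3, the plakophilin spread most widely over epithelia, went the other way with 149 and 71 counts, at -0.85 (-1.29 to -0.44), and PKP1, of stratified epithelia, had 2 and 0 counts. The ratio of PKP3 to PKP2 per length was 0.478 (0.396 to 0.573) in MAEL WT and 0.110 (0.0853 to 0.140) in MAEL KO.

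DSG2, the desmoglein of simple epithelia, had 2661 and 1897 counts, at -0.28 (-0.36 to -0.19). DSC2, the desmocollin found alongside it, had 551 and 592 counts, at 0.31 (0.14 to 0.48), and with total counts at 0.04. All 7 desmosomal cadherin genes lie in 1 cluster on chromosome 18, from the start of DSC3 at 30990008 to the end of DSG2 at 31549008. Only DSG2 and DSC2 had at least 100 counts. DSC3 had 34 and 15 counts and DSG4 had 10 and 12, while DSC1, DSG1 and DSG3, which belong to the skin, had at most 3. The ratio of DSP to DSG2 per length was 1.89 (1.81 to 1.98) in MAEL WT and 3.45 (3.28 to 3.62) in MAEL KO. Among all desmosome genes, DSG2 held 22.8% of the FPKM in MAEL WT and 13.5% in MAEL KO.

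**Figure D3:**
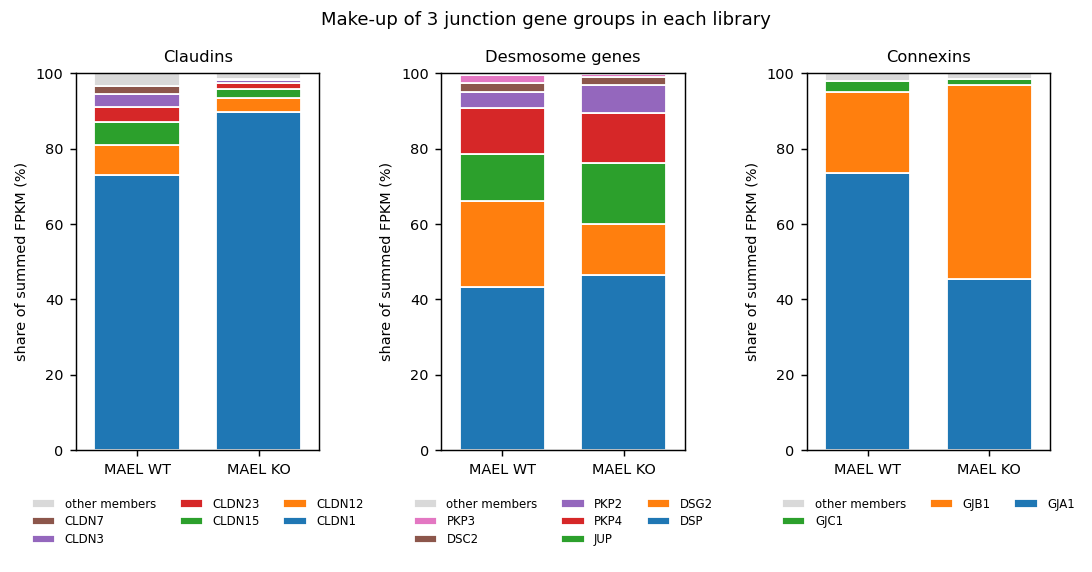
Share of the summed FPKM held by each gene, in percent, for claudins (left), desmosomal cadherins and plaque genes (middle) and connexins (right), with 1 bar per library. CLDN1 took up more of the claudin bar in MAEL KO than in MAEL WT, DSG2 took up less of the desmosome bar, and GJB1 grew from 21.4% to 51.6% of the connexin bar.

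Of the junction genes with at least 100 counts in a library, a connexin had the highest log2 fold change. GJB1 encodes connexin 32, the connexin of the hepatocyte, and lies at chrX:71215194-71225516 on the plus strand. Its reads numbered 1222 in MAEL WT and 3606 in MAEL KO, or 22.5 and 76.7 FPKM, a log2 fold change of 1.77 (1.68 to 1.87), which is under the fold threshold. GJA1 encodes connexin 43, the most widely expressed connexin, and lies at chr6:121435577-121449727 on the plus strand. It had 5770 and 4364 counts, or 77.3 and 67.4 FPKM, at -0.19 (-0.25 to -0.14). Per length the ratio of GJB1 to GJA1 was 0.292 (0.274 to 0.310) in MAEL WT and 1.14 (1.09 to 1.19) in MAEL KO, a 3.90-fold difference. GJA1 was thus the leading connexin in the MAEL WT library, with 73.5% of connexin FPKM, and in the MAEL KO library GJB1 was slightly above it, with 51.6% against 45.3%.

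The upstream bases of both genes, plus strand of GRCh38.p14, are shown 5′ to 3′ for this pair, from chrX:71214989-71215193 for GJB1 and chr6:121435396-121435576 for GJA1. A further stretch of GJA1 (chr6:121435588-121435614) holds an AP-1 site, before the RefSeq start but inside the gene as GENCODE annotates it. Capitals mark the AP-1 site (TGANTCA) in GJA1, and the window of GJB1 held no AP-1 site, E2 box or GC box.
GJB1: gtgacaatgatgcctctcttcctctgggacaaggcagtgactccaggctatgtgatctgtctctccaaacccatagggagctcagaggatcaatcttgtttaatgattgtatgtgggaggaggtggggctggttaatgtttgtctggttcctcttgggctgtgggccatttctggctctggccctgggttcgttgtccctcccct
GJA1: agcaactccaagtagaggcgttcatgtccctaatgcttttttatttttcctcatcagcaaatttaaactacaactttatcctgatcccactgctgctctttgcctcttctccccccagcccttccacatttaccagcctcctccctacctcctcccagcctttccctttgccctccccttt
GJA1 AP-1 site: tcctcccagtTGAGTCAgtggcttgaa

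An HNF4 site spelled CAAAGTCCA was found in 0 of the 80 junction gene windows and in 0.325% of all windows.

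The other connexins were minor. GJC1, connexin 45, had 588 and 411 counts, at -0.31 (-0.49 to -0.12). GJB2, connexin 26, which joins connexin 32 in liver, had 31 and 58 counts, at 1.09 (0.46 to 1.79). GJC3 had 28 and 12 counts, at -0.96 (-2.12 to 0.01), an interval that takes in 0. Of the 18 connexin genes, 12 were under the count minimum, with at most 4 counts in either library.

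**Figure D4:**
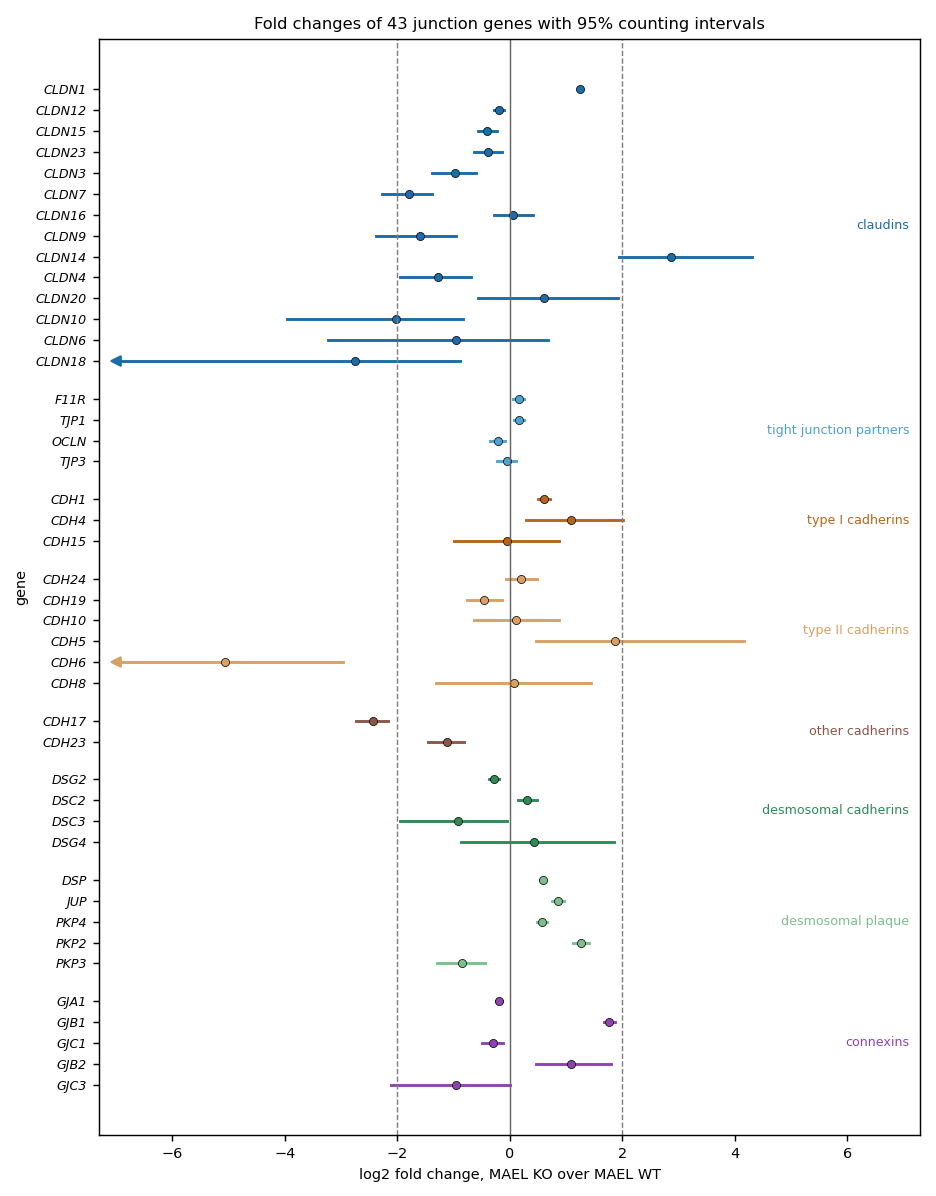
Log2 fold change of MAEL KO over MAEL WT for 43 of the 45 junction genes. Points are fold changes with 1 added to normalized counts, bars are 95% intervals that cover counting error only, arrowheads mark intervals that go on beyond the axis, and dashed lines mark the fold threshold of 2; in 10 of the genes drawn the interval takes in 0, in 14 it lies above 0 and in 19 below 0.

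Genes that work with these junctions were read from lists of known partners. The catenins and the adherens junction plaque, which join cadherins to actin, had 9 of 11 genes compared, and none passed the fold threshold. Their median was 0.23, or -0.05 with total counts. CTNNB1, which encodes beta-catenin, had 5725 and 6228 counts, at 0.33 (0.28 to 0.38), CTNNA1 6821 and 5985 counts, at 0.02 (-0.03 to 0.07), and VCL, which encodes vinculin, 3311 and 4974 counts, at 0.80 (0.73 to 0.86). ARVCF, a catenin of the p120 family, had 612 and 418 counts, at -0.34 (-0.52 to -0.16). Among 33 of 36 tight junction plaque and polarity genes the median was -0.02, with 1 gene past the threshold, where 7.8% of all genes were. That gene was DLG3, a MAGUK scaffold, with 243 and 36 counts, at -2.51 (-3.09 to -2.04). Its relative DLG4 had 623 and 271 counts, at -0.99 (-1.20 to -0.78), and MPP5, the polarity scaffold PALS1, had 733 and 980 counts, at 0.63 (0.49 to 0.77).

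Nectins and other adhesion receptors had 10 of 18 genes compared, at a median of -0.32, with 1 lower past the threshold, beside 5.64% of all genes. This was EPCAM, an adhesion molecule of simple epithelia that binds CLDN7, with 15 and 0 counts. MPZL2, an adhesion receptor of epithelia, had 421 and 1196 counts, at 1.71 (1.56 to 1.88), and CADM4 had 641 and 266 counts, at -1.06 (-1.27 to -0.85). Of the 7 pannexins and other connexins, 4 were compared and none passed. PANX1, which forms release channels for ATP, had 531 and 569 counts, at 0.31 (0.14 to 0.48), and PANX2 had 392 and 190, at -0.83 (-1.09 to -0.58). The other two differed more from fewer reads. PANX3 had 65 and 15 counts, at -1.84 (-2.82 to -1.08) and, past the threshold, at -2.11 with total counts, and GJD3 had 25 and 9 counts, at -1.18 (-2.55 to -0.12). The 7 compared of 8 desmosome partners and plakins had a median of 0.22 and none passed. PERP, a desmosome membrane protein, was at 0.22 (0.17 to 0.27) with 6496 and 6559 counts, and at -0.05 with total counts. LGALS3, which encodes galectin-3, had 613 and 1230 counts, at 1.21 (1.07 to 1.36), and DST, which encodes a plakin linker, had 4721 and 2704 counts, at -0.59 (-0.66 to -0.53).

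Keratins, to which desmosomes are anchored, differed in both directions. KRT8 and KRT18, the keratin pair of hepatocytes, had 12248 and 23308 counts, at 1.14 (1.11 to 1.17), and 8981 and 10320 counts, at 0.41 (0.37 to 0.45). Of 9 keratins compared among 17, 5 were lower past the threshold, where 5.64% of all genes were, and none was higher past it, where 2.16% were. The 5 were KRT7, with 60 and 1 counts, KRT15, with 117 and 15, KRT80, with 31 and 0, KRT20, with 26 and 2, and KRT19, with 13 and 1. Apart from KRT15, these 5 reached the count minimum in MAEL WT only, which by itself favours a large fold change downward. Of the 5, KRT15 alone had at least 100 counts in a library, a depth at which 2.35% of all genes were lower past the threshold. KRT7 and KRT19 belong to bile duct cells and KRT20 to the gut. The others were KRT23, the highest of the list, with 89 and 181 counts, at 1.22 (0.86 to 1.62), and KRT10, a keratin of the epidermis, with 2583 and 1177 counts, at -0.92 (-1.02 to -0.82).

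Among the regulators of epithelial adhesion, 8 of 14 EMT transcription factors were compared, and 1 was lower past the threshold, beside 5.64% of all genes. This was TWIST2, a repressor of CDH1, with 122 and 14 counts, at -2.83 (-3.83 to -2.11). ZEB1, another repressor of CDH1, had 325 and 169 counts, at -0.73 (-1.01 to -0.46). SNAI1 had 102 and 101 counts, at 0.19 (-0.22 to 0.61). Of 25 epithelial transcription and splicing regulators, 19 were compared and 4 were lower past the threshold, beside the same 5.64%, namely CEBPB, KLF4, ESRP1 and OVOL1, the last 2 from at most 15 counts. CEBPB had 9375 and 1723 counts, at -2.23 (-2.31 to -2.16), and KLF4 1160 and 190, at -2.39 (-2.63 to -2.18). HNF4A, a regulator of hepatocyte genes and polarity, had 2816 and 5391 counts, at 1.15, KLF5 had 1496 and 2708 counts, at 1.07 (0.97 to 1.16), and ESRP2, a splicing regulator of epithelia, had 1171 and 1791 counts, at 0.82 (0.72 to 0.93). Mesenchymal genes had a median of 0.31 over 9 of 14, with 2 lower past the threshold, COL1A1 and S100A4, beside 5.64% again. FN1 and VIM were at -0.22 and 0.31.

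Markers of the labelled tissue were present in both libraries and were higher in MAEL KO. All 8 hepatocyte markers lay above 0, with log2 fold changes from 0.36 to 7.36 and summed counts of 257820 and 530850. Of them, 3 were higher past the threshold, where 2.16% of all genes compared were. These 3 were ALB with 59 and 8550 counts, APOA1 with 419 and 4400 and TTR with 20 and 155. The 4 biliary markers summed to 234 and 77 counts, and SPP1, which biliary cells express, had 0 and 2. The 4 intestinal markers summed to 1401 and 1979 counts, nearly all from VIL1 and CDX2, with FABP2 at 1 count in each. Of the squamous markers KRT5 and KRT14 were at 0 in both libraries, and SFN, with 1380 and 1806 counts, held nearly all of that list. Of the other cell types, the 5 endothelial markers summed to 355 and 408 counts, of which PECAM1 held 348 and 392 while KDR, VWF and TIE1 had at most 1. The 5 fibroblast markers summed to 272 and 177 counts and were divided. PDGFRB had 122 and 29 counts and COL1A1 92 and 11. COL3A1 went the other way with 54 and 136 counts, at 1.52 (1.08 to 2.03). COL1A2 was at 1 in both libraries and DCN at 3 and 0. The 5 leukocyte markers summed to 1297 and 745 counts, nearly all LYZ, with PTPRC at 3 and 0 and CD3E at 0. The part of these marker genes in the junction gene differences was not tested.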

How the data were processed

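RNA of PLC8024 cells was sequenced as 1 library per genotype on a HiSeq platform. The authors deposited whole-number read counts per gene, not normalized, and FPKM values. The processing notes name HISAT2 2.0.5, featureCounts 1.5.0-p3 and hg19, whereas all 58735 genes carry the GRCh38 positions of GENCODE 29. The deposited FPKM values equal counts per listed gene length and a library size of 1.10 (MAEL WT) and 0.910 (MAEL KO) times the total counts. All 4 value columns were used.

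Counts were scaled by TMM in edgeR 4.0.16 (R 4.3.3), with factors of 1.10 and 0.909. DESeq2 1.42.0 gave other size factors. Other steps used Python 3.11.15 with NumPy 2.4.6, SciPy 1.17.1, pandas 2.3.3 and matplotlib 3.10.9. No differential test was run, as neither genotype has a second library, and the log2 threshold of 2 follows the study's methods. On counts simulated for this comparison, 200 of 200 changed genes and 16 of 17228 unchanged genes passed the threshold, and 95.8% of true values lay in their intervals. The simulated counts held counting error only, and the changed genes were given log2 fold changes larger than the threshold. These numbers therefore check the calculation and give no rate of false calls between single libraries.

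Members and gene lists were chosen with earlier results of these data known. Genes named are members past 2, members past 1 with at least 100 counts, the 3 members of highest FPKM per group, and the extremes of each list. Further members, list genes and the ratios between members were picked after their values were seen. Promoter sequences are RefSeq's on GRCh38.p14, cut before annotated UTRs apart from sites of up to 27 bases, and 52 of the 83 genes matched. Values of a few genes are not reported here.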

Additional observations from a re-analysis of the deposited data

How the results depend on the processing

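The counts of 1 junction gene higher and 4 lower past the fold threshold were within 1.5 times of these when scaled by total counts or by DESeq2, when taken as ratios of the FPKM columns, and over protein-coding genes only. They were 2 higher with an added count of 0.1, 2 lower with an added count of 5, 7 lower with no count filter, and 0 higher and 1 lower with at least 100 counts in 1 library. At a log2 threshold of 1 they were 8 and 8. Each of these follows from how the setting weighs genes of few counts or where it puts the threshold. With at least 20 counts summed over both libraries, a filter chosen after the data had been seen, 1 was higher and 3 were lower.

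The median log2 fold change of junction genes was -0.05 and lay between -0.31, with total counts, and 0.00, with the summed filter, and the median of all genes moved with it from -0.04 to -0.31 under total counts. These settings gave 180 values for 30 junction genes picked by the naming rule, of which 18 fell outside the counting interval, 17 of them with total counts, and 4 changed sign, all with total counts (F11R, TJP1, CDH24 and CDH10). CDH17, CDH6 and CLDN14 passed the threshold under every scaling and added count, and CLDN10 and CLDN18 under all but an added count of 5.

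No paired analysis was possible because each condition has 1 library, and leaving out a library would leave its condition empty. Junction genes under 100 counts in both libraries have intervals that span more than 1 on the log2 scale.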

Other observations

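Junction genes that lie side by side on a chromosome were not always alike in their values. CLDN9 and CLDN6 on chromosome 16 lie 206 bases apart on opposite strands, and had 83 and 23 counts and 10 and 4 counts. CDH3 and CDH1 lie 14.6 kb apart on the same strand, with at most 6 counts for CDH3 in either library against at least 1400 for CDH1. In the connexin cluster on chromosome 13, GJB2 had 31 and 58 counts, while GJA3 and GJB6 on either side of it had at most 3. The median log2 fold change of all genes compared on the chromosomes that carry the 45 junction genes lay between -0.22 (X, which carries GJB1) and 0.09 (chromosomes 5 and 18).

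Of the 45 junction genes compared, 14 share exon bases with another annotated gene and 7 share over 10% of them. CLDN6 shares 40 bases with TNFRSF12A on the opposite strand, which had 4820 and 2515 counts against 10 and 4 for CLDN6. GJC3 shares 20.5% of its exon bases with an antisense gene that had 4 and 2 counts. For all 45 genes the listed length equals the union of exons in GENCODE 29, so an FPKM value is lower for a gene with many rarely used exons.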
